A study of Arabidopsis thaliana with 5 samples.

Results

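The genes described here are the 41 Arabidopsis thaliana genes through which a plastid turns imported sugar phosphate into fatty acids, counting among them WRI1, the transcription factor known to activate many of the others. They were listed by gene identifier, from plastid import to export of the finished acyl chain, and not by their values. Earlier results of these data were known when the list was chosen. The deposited table has a row for each of the 41, out of 37336 genes in all, and all 41 passed the filter on low counts, as did 19003 genes in all. Their counts ran from 180 to 38964 per library.

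The study sequenced RNA from seeds 9 days after pollination by the labels and methods (the results text of the study names a different day), with 2 libraries from wild-type Col-0 plants and 3 from dof4.1-3, a T-DNA mutant of the transcription factor gene DOF4.1 in the same Col-0 background. The labels write the mutant as dof4-1. A single insertion line represents the mutant, and neither the labels nor the methods say whether replicates came from separate plants, so the p-values below measure the spread between libraries, which may be technical. For DOF4.1 itself, Col-0 gave 1 and 14 counts and the mutant gave 3, 4 and 4, which is below the filter on low counts and too few to check the labels.

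In a developing seed, plastids import glucose 6-phosphate and phosphoenolpyruvate, and plastid pyruvate kinase and the plastid pyruvate dehydrogenase complex convert these to acetyl-CoA. Acetyl-CoA carboxylase makes malonyl-CoA, and the separate enzymes of fatty acid synthase extend the chain while it is held on acyl carrier protein (ACP). Stearoyl-ACP desaturase places the first double bond, thioesterases release the free fatty acid, and export proteins pass it on to oil assembly outside the plastid. WRI1 binds a sequence known as the AW-box near the start of many of these genes.

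The AW-box reads C, any base, T, any base, G, then 7 bases of any kind and CG, and it was searched on both strands of the TAIR10.1 genome sequence of RefSeq. Between 250 bases before and 50 after the annotated gene start, 10 of the 41 genes (24.4%) held it, against 11.9% of 27443 protein-coding genes. Between 500 bases before and 200 after the start, a window chosen after the first had been read, 29 of 41 (70.7%) held it, against 31.3% of all. These 29 genes carried 45 matches, of which 30 lay in untranslated exons and 15 upstream, and 4 pairs of matches overlapped on opposite strands. By step, the matches fell in 7 of 7 pyruvate dehydrogenase genes, 4 of 4 enolase and pyruvate kinase genes, 7 of 8 fatty acid synthase genes, 3 of 5 ACP genes, 2 of 4 carboxylase genes, 2 of 4 desaturase genes, 2 of 3 import genes, 2 of 5 thioesterase and export genes and 0 of 1 for WRI1. The stretches below are matches in this wider window, shown because they come from genes whose values are given further on, among them 3 pairs of genes for the same kind of protein. Each is read 5′ to 3′ on the strand named, and the capitals mark the fixed letters of the motif.
ACP1 (chr3:1392928-1392957, minus strand, untranslated exon): ttcacgctCtTtGtacactcCGccctctct
ACP5 (chr5:9571139-9571168, plus strand, upstream of the gene start): ttcacgctCcTtGaacaatcCGccatctct
LPD1 (chr3:5790474-5790503, minus strand, untranslated exon): aaagcgggCtTtGaaaactcCGcctccgtt
LPD2 (chr4:9157219-9157248, minus strand, upstream of the gene start): catctccgCtTtGatatctcCGcctccgct
PDH-E1 BETA (chr1:10586577-10586606, minus strand, untranslated exon): atttaattCtTcGatttctcCGcttgtcac
AT2G34590 (chr2:14570951-14570980, minus strand, untranslated exon): cgcttttcCtTcGatttctcCGctcttctc
PDH-E1 ALPHA (chr1:49365-49394, minus strand, upstream of the gene start): gaaaaaaaCaTtGgtgttaaCGaagaaggg
PKP1 (chr3:8139265-8139294, plus strand, untranslated exon): ctctcacaCtTcGatatctcCGccttcatt
KASII (chr1:28156594-28156623, minus strand, upstream of the gene start): tgtccttcCtTcGattaaacCGaggtcacc
PPT1 (chr5:12588728-12588757, minus strand, untranslated exon): taaaccttCgTtGaaaagtcCGccttttaa
The stretches of ACP1 and ACP5 were identical at 26 of 30 bases, those of LPD1 and LPD2 at 21, and those of the genes for the E1 beta subunit, PDH-E1 BETA and AT2G34590, at 21. Genes for different proteins matched about as well as the latter pairs, with 23 identical bases for ACP2 and HAD2, 21 for EMB3003 and KASIII and 20 for LPD2 and PKP1, so that only ACP1 and ACP5 stood above all other pairs. The median over 971 pairs of matches from different genes was 12 identical bases of 30, the fixed letters included. Dof factors are known to bind a core of AAAG, searched with its complement CTTT. It was present in 97.6% of the members and 99.1% of all protein-coding genes in the shorter window, with 4.73 and 5.03 matches per gene on average. These shares are given without a test, and a match is a description of the sequence and not of binding.

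The 5 libraries held 16500028 to 21722055 gene counts. Levels are given below as TMM-scaled CPM, counts relative to the size of the library, and as CPM per kilobase of exon where genes are compared with each other. Across all tested genes, edgeR's quasi-likelihood test with Benjamini-Hochberg adjustment called 206 genes at an adjusted p under 0.05 (1.08%), of which 23 were higher and 183 lower in dof4.1-3. Whole seeds contain embryo, endosperm and seed coat, so fewer cells of a type and less RNA per cell cannot be told apart. Of the marker genes listed for these tissues, the sum of 7 embryo markers ran from 17186 to 29793 CPM in Col-0 and from 35838 to 69391 CPM in dof4.1-3, most of it from the storage protein gene CRA and the oleosin gene OLE1. The sum therefore says little of the other embryo markers. All 7 were tested with 0 called by edgeR (2 at an unadjusted p under 0.05, against 15.8% of all tested genes). Log2 fold changes were positive for 5, from 0.16 (ATML1) to 1.58 (CRA), and negative for 2, WOX2 (-0.041) and DRN (-0.046). WOX2 and DRN had at most 0.87 and 0.68 CPM in any library. SCR, the embryo marker with the smallest p, had 38.3 and 53.5 CPM in Col-0 and 93.2, 85.6 and 118 CPM in dof4.1-3. The log2 fold change of SCR was 1.10 ± 0.24 (SE; edgeR adjusted p = 0.062). The 8 seed coat markers summed to 1281 to 1525 CPM in Col-0 and 778 to 903 CPM in dof4.1-3. Of these, 7 were tested, all with negative log2 fold changes, and 6 had an unadjusted p under 0.05 by edgeR (15.8% of all tested genes). BAN alone was called lower, as were 0.963% of all tested genes. The 8 endosperm markers summed to 137 to 146 CPM and 49.4 to 90.4 CPM, and PHE1, IKU2 and MINI3 were at or near 0. Of these markers 3 were tested, all with negative log2 fold changes and 0 called by edgeR (2 at an unadjusted p under 0.05, against 15.8% of all tested genes). The 5 silique wall markers summed to 53.4 to 61.0 CPM and 28.6 to 32.8 CPM. All 5 were tested and had negative log2 fold changes, 3 of them at an unadjusted p under 0.05 by edgeR (15.8% of all tested genes). SHP2 alone was called lower, against 0.963% of all tested genes. No marker was at 0 in all libraries, and the part of these differences in the values below was not tested.

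No gene of the pathway was called in either direction. By edgeR 0 of 41 passed an adjusted p of 0.05, against 1.08% of all tested genes, with 0 higher (0.121% of all) and 0 lower (0.963% of all). By DESeq2 0 of 41 passed, against 4.31% of the genes it gave an adjusted p, and by limma-voom 0 of 41 passed, against 1.08%. At an unadjusted p under 0.05 edgeR listed 4 of 41 (15.8% of all tested genes), the ketoacyl-ACP synthase gene KASII, LPD2, the pyruvate kinase gene PKP1 and the desaturase gene SSI2, while DESeq2 listed 10 (11.5% of all genes it tested) and limma-voom 5 (15.8% of all). That edgeR count was 0 without Col-0 replicate 1 (6.87% of all tested genes) and 1 without Col-0 replicate 2 (12.1%). With a dof4.1-3 library left out it was 0 for replicate 1 (14.4%), 8 for replicate 2 (23.2%) and 2 for replicate 3 (11.7%). The smallest adjusted p by edgeR was 0.234, for KASII. The smallest absolute log2 fold change among the genes called in the whole table was 0.95, and the values of the 41 ranged from -0.36 for ACP5 to 0.67 for KASII, with standard errors of 0.19 to 0.34.

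The values themselves were mostly positive. The log2 fold change of dof4.1-3 over Col-0 was above 0 for 35 of 41 genes (85.4%), against 52.6% of all tested genes, and its median was 0.31, a 1.24-fold difference, against 0.03 for all tested genes. In 18 of 41 genes (43.9%) every dof4.1-3 library was above both Col-0 libraries, which held for 16.3% of all tested genes. The reverse order held for 1 of 41 (2.44%), the thioesterase gene FATB, against 18.3% of all tested genes, and in 22 genes the groups overlapped. The 41 genes were measured in the same 5 libraries and are not independent replicates. Under at least 1 of 13 alternatives to the processing, 9 of the 41 changed sign and 32 did not. The 6 genes with negative values were GPT2, ACP2, ACP4, ACP5, DES6 and FATB.

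**Figure D1:**
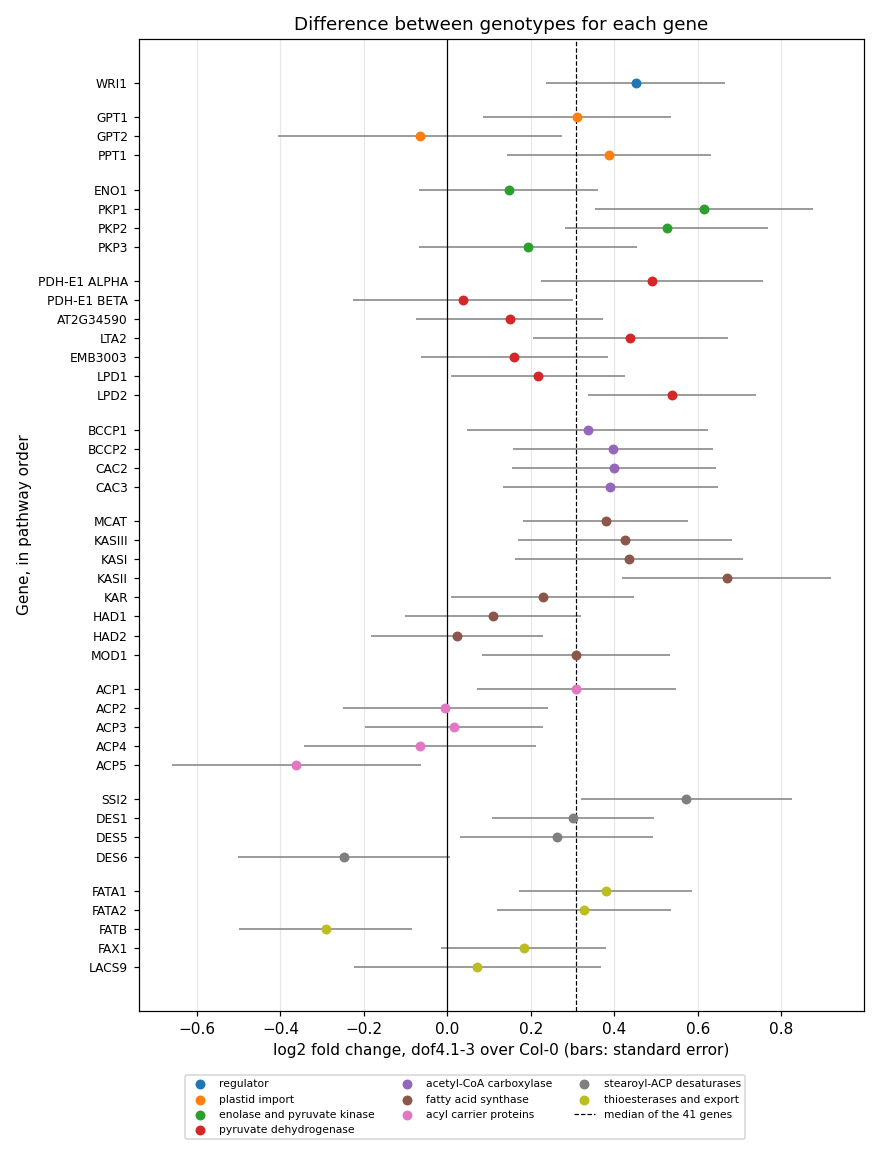
log2 fold change of dof4.1-3 over Col-0 (horizontal axis, edgeR) for each of the 41 genes in pathway order, with bars of 1 standard error and a dashed line at the median of 0.31. The points run from -0.36 (ACP5) to 0.67 (KASII), 35 lie above 0, and 0 passed the test.

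WRI1 (AT3G54320, chr3:20114488-20118745, plus strand), an AP2-type factor and the one regulator among the 41, had 230.5 and 262 CPM in Col-0 and 369, 330.1 and 311 CPM in dof4.1-3. All dof4.1-3 libraries were above both Col-0 libraries. The log2 fold change was 0.45 ± 0.21 (SE), with an adjusted p of 0.344 by edgeR.

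Of the 3 import genes, 2 had positive log2 fold changes, and the groups overlapped in all 3. PPT1 (AT5G33320), the phosphoenolpyruvate translocator and the highest of them per length, had 316 and 348 CPM in Col-0 and 493, 336 and 473 CPM in dof4.1-3, where replicate 2 fell between the Col-0 libraries. Its log2 fold change was 0.39 ± 0.24 (SE; edgeR adjusted p = 0.473). The other 2 genes encode translocators of glucose 6-phosphate. GPT1 had 70.6 and 61.5 CPM in Col-0 and 91.5, 63.0 and 91.2 CPM in dof4.1-3, with dof4.1-3 replicate 2 inside the Col-0 range and the others above it. GPT2 had 144 and 139 CPM in Col-0 and 207, 116 and 83.4 CPM in dof4.1-3, so its dof4.1-3 libraries lay on both sides of the Col-0 pair. The log2 fold change of GPT2 was -0.066 ± 0.34 (SE), and it was 0.19 without dof4.1-3 replicate 3.

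Plastid enolase and pyruvate kinase make pyruvate, and all 4 of their genes had positive log2 fold changes, with a median of 0.36. PKP1 (AT3G22960, chr3:8139185-8142052, plus strand), the alpha subunit, had 539 and 566 CPM in Col-0 and 877, 653 and 1007 CPM in dof4.1-3. PKP2 (AT5G52920, chr5:21463467-21466880, plus strand), the main beta subunit, had 591 and 683 CPM in Col-0 and 1023, 793 and 933 CPM in dof4.1-3. For both genes every dof4.1-3 library was above both Col-0 libraries. The log2 fold change was 0.61 ± 0.26 (SE) for PKP1, a 1.53-fold difference with an adjusted p of 0.291 by edgeR. For PKP2 it was 0.53 ± 0.24 (SE), with an adjusted p of 0.333 by edgeR. PKP3, the other beta subunit gene, was the lowest of the 41 per length, at 5.101 and 7.25 CPM per kb in Col-0 and 8.29, 7.75 and 5.18 CPM per kb in dof4.1-3. ENO1, the plastid enolase that feeds pyruvate kinase, had 168 and 185 CPM in Col-0 and 229, 184 and 172 CPM in dof4.1-3, and the groups overlapped for PKP3 and ENO1. ENO1 shares 10.2% of its exon length with genes on the other strand.

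The pyruvate dehydrogenase complex joins E1, E2 and E3 subunits, and all 7 of its genes had positive log2 fold changes, with a median of 0.22. PDH-E1 ALPHA (AT1G01090), the highest of them per length, had 1160.2 and 1090.5 CPM in Col-0 and 1775, 1267 and 1699.8 CPM in dof4.1-3. LPD2 (AT4G16155, chr4:9153570-9157133, minus strand), an E3 subunit, had 90.8 and 113 CPM in Col-0 and 151, 149 and 145 CPM in dof4.1-3. Both were higher in every dof4.1-3 library than in either Col-0 library, as was the E2 gene LTA2. LPD2 had the narrower spread in dof4.1-3, a log2 fold change of 0.54 ± 0.20 (SE) and an edgeR adjusted p of 0.237. PDH-E1 ALPHA had a log2 fold change of 0.49 ± 0.27 (SE; edgeR adjusted p = 0.405). The E1 beta partner gene PDH-E1 BETA differed in that its dof4.1-3 libraries straddled Col-0. It had 615 and 618 CPM in Col-0 and 662, 467 and 770.2 CPM in dof4.1-3, and its log2 fold change of 0.038 ± 0.26 (SE) became -0.13 without dof4.1-3 replicate 3. AT2G34590, the other E1 beta gene, had 255 and 236 CPM in Col-0 and 324, 236 and 258 CPM in dof4.1-3. The E2 gene EMB3003 and the E3 gene LPD1 had log2 fold changes of 0.16 and 0.22, and their groups overlapped as those of AT2G34590 did.

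The 4 nuclear genes of the plastid carboxylase had log2 fold changes from 0.34 to 0.40. BCCP2 (AT5G15530, chr5:5038563-5040840, plus strand), a biotin carboxyl carrier and the highest of them per length, had 858 and 837 CPM in Col-0 and 1085, 1019 and 1245 CPM in dof4.1-3. CAC2, the biotin carboxylase, had 636 and 639 CPM in Col-0 and 939.9, 693 and 889 CPM in dof4.1-3. In both genes all dof4.1-3 libraries were above Col-0. BCCP1, the other carrier gene, had 378 and 429 CPM in Col-0 and 529, 344 and 655 CPM in dof4.1-3, so its lowest and highest values both came from dof4.1-3. In CAC3, which encodes the carboxyltransferase alpha subunit, only dof4.1-3 replicate 2 fell inside the Col-0 range of 310.2 and 400.3 CPM. The edgeR adjusted p was 0.454 for BCCP2, and 0.459, 0.491 and 0.601 for CAC2, CAC3 and BCCP1. The closeness of the 4 fold changes did not hold in every fit. That of BCCP1 was 0.12 without dof4.1-3 replicate 3, 0.56 without dof4.1-3 replicate 2 and 0.083 in the fit blocked by replicate number. That of CAC3 was 0.22 without Col-0 replicate 1 or without dof4.1-3 replicate 1, 0.59 without Col-0 replicate 2, and 0.18 with a trend over gene length removed. BCCP2 shares 19.8% of its exon length with genes on the other strand, and reads were counted without strand, so its level is uncertain to that extent.

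The 8 fatty acid synthase genes all had positive log2 fold changes, with a median of 0.34. KASII (AT1G74960, chr1:28151920-28156350, minus strand), the ketoacyl-ACP synthase that makes the last elongation from palmitoyl-ACP to stearoyl-ACP, had 171 and 188 CPM in Col-0 and 330.4, 314 and 212 CPM in dof4.1-3. Every dof4.1-3 library was above both Col-0 libraries, with replicate 3 nearest to them. Its log2 fold change of 0.67 ± 0.25 (SE) corresponds to a 1.59-fold difference and was the highest of the 41 in this fit, and 6.46% of all tested genes had a higher one. It was not the highest without Col-0 replicate 1, dof4.1-3 replicate 1 or dof4.1-3 replicate 2, nor with a trend over gene length removed, where KASII had 0.50, below ACP1, SSI2, LPD2 and PKP1 at 0.63, 0.56, 0.55 and 0.51. KASI (AT5G46290), which makes most of the elongations, was the highest of this step per length. It had 806 and 934 CPM in Col-0 and 1316, 881 and 1331 CPM in dof4.1-3, where replicate 2 fell between the Col-0 libraries. KASIII, which makes the first condensation, had 102 and 109 CPM in Col-0 and 186, 105 and 135 CPM in dof4.1-3, and again dof4.1-3 replicate 2 lay within the Col-0 range. The malonyl transferase gene MCAT, the ketoacyl reductase gene KAR and the enoyl reductase gene MOD1 were above Col-0 in every dof4.1-3 library. MCAT had close values within each genotype, 169 and 178 CPM in Col-0 and 230.3, 221 and 226 CPM in dof4.1-3. The dehydratase genes HAD1 and HAD2 had log2 fold changes of 0.11 and 0.023, with overlapping groups, and of 0.34 and 0.28 with the trend over gene length removed. HAD1 had 231 and 219 CPM in Col-0 and 263, 254 and 210.3 CPM in dof4.1-3. HAD2 had 219 and 198 CPM in Col-0 and 236, 205 and 195 CPM in dof4.1-3.

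Of the 5 ACP genes 2 lay above and 3 below 0 in log2 fold change, with a median of -0.0047, the only negative median among the 9 steps in this fit, although none of the 5 was negative with the trend over gene length removed. ACP1 (AT3G05020, chr3:1391632-1392954, minus strand), the highest of the 41 per length, had 1049 and 1026 CPM in Col-0 and 1355, 1198 and 1302 CPM in dof4.1-3. All dof4.1-3 libraries were above Col-0, and the log2 fold change was 0.31 ± 0.24 (SE; edgeR adjusted p = 0.56). ACP5 (AT5G27200, chr5:9571185-9572213, plus strand) was the most negative, at 583 and 352 CPM in Col-0 and 385, 443 and 262 CPM in dof4.1-3. The Col-0 libraries of ACP5 differed from each other by more than the genotype means did, and its log2 fold change of -0.36 ± 0.30 (SE) became 0.051 without Col-0 replicate 1. ACP5 also shares 23.0% of its exon length with an antisense gene, AT5G27210, the highest share of the 41. ACP4, known as the main leaf form, had 63.8 and 66.6 CPM in Col-0 and 40.0, 65.04 and 81.9 CPM in dof4.1-3, with a dof4.1-3 library on each side of Col-0. ACP2 and ACP3 had log2 fold changes of -0.0047 and 0.017. For ACP2 the values were 1169 and 1122 CPM in Col-0 and 1242, 975 and 1208 CPM in dof4.1-3. For ACP3 they were 490 and 462 CPM in Col-0 and 488, 457 and 500 CPM in dof4.1-3. Summed per length, the 5 genes stood at 3745 ± 324 CPM per kb (SD, n = 2) in Col-0 and 3926 ± 200.3 CPM per kb (SD, n = 3) in dof4.1-3. Within that sum the share of ACP1 was 36.6 and 40.5% in Col-0, against 45.4, 44.3 and 46.4% in dof4.1-3, so the groups did not overlap, and this share was not tested. The shares of ACP2, ACP3, ACP4 and ACP5 overlapped. For comparison, the levels of 16.3% of all tested genes were above Col-0 in every dof4.1-3 library.

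Among the desaturases, SSI2 (AT2G43710, chr2:18119873-18122889, plus strand), the principal stearoyl-ACP desaturase, had 652 and 622 CPM in Col-0 and 925, 784 and 1132 CPM in dof4.1-3. DES5 had 447 and 425 CPM in Col-0 and 615, 488 and 464 CPM in dof4.1-3. DES1 had 116 and 122 CPM in Col-0 and 157, 139.9 and 142 CPM in dof4.1-3. These 3 genes were above Col-0 in every dof4.1-3 library, and SSI2 had the highest value, a log2 fold change of 0.57 ± 0.25 (SE; edgeR adjusted p = 0.311). DES6 had 129 and 128 CPM in Col-0 and 135, 74.9 and 114 CPM in dof4.1-3, so that 2 of the 3 dof4.1-3 libraries were below Col-0. Per length, DES6 made up 11.1 and 11.5% of the 4 desaturase genes in Col-0, against 8.60, 5.92 and 7.28% in dof4.1-3, and these groups did not overlap (not tested). The share of SSI2 was 45.8 and 45.2% in Col-0, against 47.9, 50.3 and 58.6% in dof4.1-3, also without overlap. Those of DES1 and DES5 overlapped. For comparison, the levels of 16.3% of all tested genes were above Col-0 in every dof4.1-3 library and those of 18.3% were below.

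Thioesterases end chain growth, FATA enzymes chiefly on oleoyl-ACP and FATB on saturated chains. FATA1 (AT3G25110, chr3:9146271-9148525, minus strand), the higher FATA gene per length, had 156 and 142 CPM in Col-0 and 209, 169 and 201 CPM in dof4.1-3. FATA2, the other gene of that class, had 101 and 111 CPM in Col-0 and 139, 112 and 148 CPM in dof4.1-3. FATB (AT1G08510, chr1:2691062-2694547, minus strand), the one gene of the other class, had 157 and 166 CPM in Col-0 and 112, 133 and 151 CPM in dof4.1-3. All dof4.1-3 libraries were above Col-0 for both FATA genes and below Col-0 for FATB, although for FATA2 dof4.1-3 replicate 2 was only just above Col-0 replicate 2. The log2 fold changes were 0.38 ± 0.21 (SE) for FATA1, 0.33 ± 0.21 (SE) for FATA2 and -0.29 ± 0.21 (SE) for FATB, with edgeR adjusted p of 0.408, 0.476 and 0.526. Of the export genes, FAX1, the exporter of the plastid envelope, had 21.4 and 18.4 CPM in Col-0 and 19.9, 22.7 and 25.2 CPM in dof4.1-3. LACS9, the acyl-CoA synthetase of the plastid envelope, had 172 and 233 CPM in Col-0 and 294, 151 and 193 CPM in dof4.1-3. The groups overlapped in both.

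**Figure D2:**
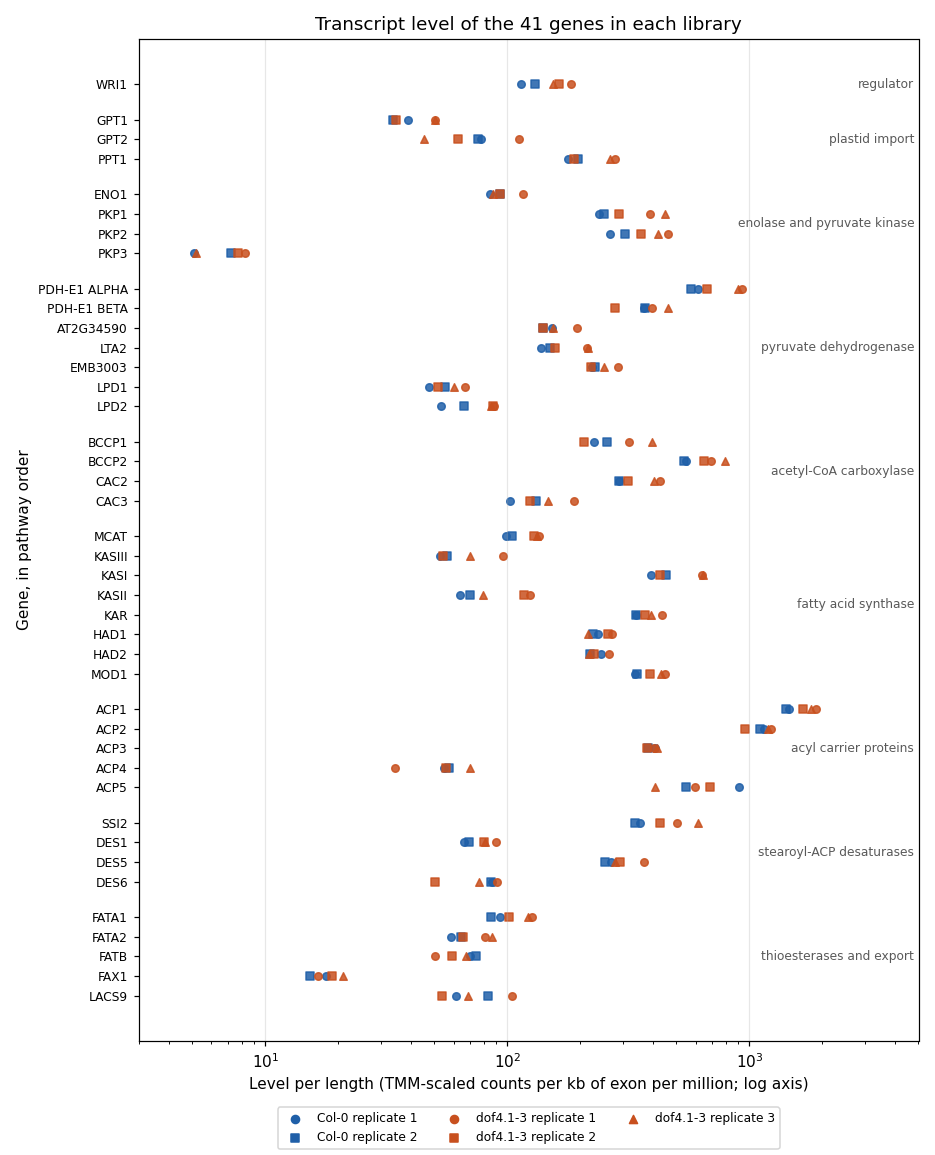
Level per length of each gene (horizontal log axis, TMM-scaled CPM per kilobase of exon) in the 2 Col-0 libraries (blue) and the 3 dof4.1-3 libraries (orange), in pathway order. ACP1 is highest and PKP3 lowest, 233-fold apart in Col-0, and for FATB all orange points lie left of the blue ones.

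The order of levels per length was set by the gene far more than by the genotype. In Col-0 the mean of ACP1 was 233-fold that of PKP3, while the differences between genotypes stayed between 0.778-fold and 1.59-fold. The subunits of a complex differed in level per length too. Of pyruvate dehydrogenase, E1 alpha stood at 594 ± 26.0 CPM per kb (SD, n = 2) in Col-0 and the summed E1 beta genes at 516 ± 6.77. The summed E2 genes stood at 371 ± 12.9 CPM per kb and the summed E3 genes at 111 ± 14.9, both in Col-0. E1 alpha and E1 beta were thus apart by more than their Col-0 spread, and E3 was the lowest of the 4 subunits. In dof4.1-3 the E1 beta sum was 542 ± 106 CPM per kb (SD, n = 3) while E1 alpha was 834 ± 145. For the carboxylase in Col-0, the summed carriers BCCP1 and BCCP2 stood at 786 ± 12.3 CPM per kb (SD, n = 2), biotin carboxylase at 289.6 ± 0.870 and carboxyltransferase alpha at 117 ± 21.0. BCCP2 made up 70.6 and 67.4% of the carriers in Col-0, against 68.5, 75.9 and 66.8% in dof4.1-3, with overlap. The subunits of pyruvate kinase stood at 245 ± 8.49 CPM per kb (SD, n = 2) for alpha and 293 ± 30.9 for the summed beta genes in Col-0.

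Ratios between genes within a library do not depend on how libraries are scaled, so 9 of them were compared by an exact permutation test (two-sided, where 2 against 3 libraries cannot give a p under 0.1). The log2 ratio of FATB to the summed FATA genes was -0.71 and -0.60 in Col-0, against -1.63, -1.08 and -1.21 in dof4.1-3. It was lower in every dof4.1-3 library, with a mean difference of -0.65, an exact permutation p of 0.1, the smallest possible, and 0.9 after Benjamini-Hochberg adjustment over the 9. DES5 over SSI2 was the other ratio without overlap. Its log2 value was -0.54 and -0.55 in Col-0, against -0.59, -0.68 and -1.29 in dof4.1-3, where replicate 3 stood apart (exact permutation p = 0.5). In the other 7 ratios the groups overlapped, with exact permutation p from 0.4 to 0.9. Of the levels of all tested genes, 16.3% were above and 18.3% below both Col-0 libraries in every dof4.1-3 library. No such share was taken over ratios. KASII over KASI was -2.24 and -2.31 in Col-0, against -1.99, -1.49 and -2.65 in dof4.1-3, so the mutant libraries spread over a wider range than the difference between the genotypes. GPT2 over GPT1 was 1.03 and 1.18 in Col-0, against 1.17, 0.88 and -0.13 in dof4.1-3, with replicate 3 alone below 0. BCCP2 over BCCP1 ranged from 0.93 to 1.57 in dof4.1-3 and included both Col-0 values. HAD1 over HAD2 stayed between 0.076 and 0.31 in the 5 libraries, the narrowest range of the 9.

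**Figure D3:**
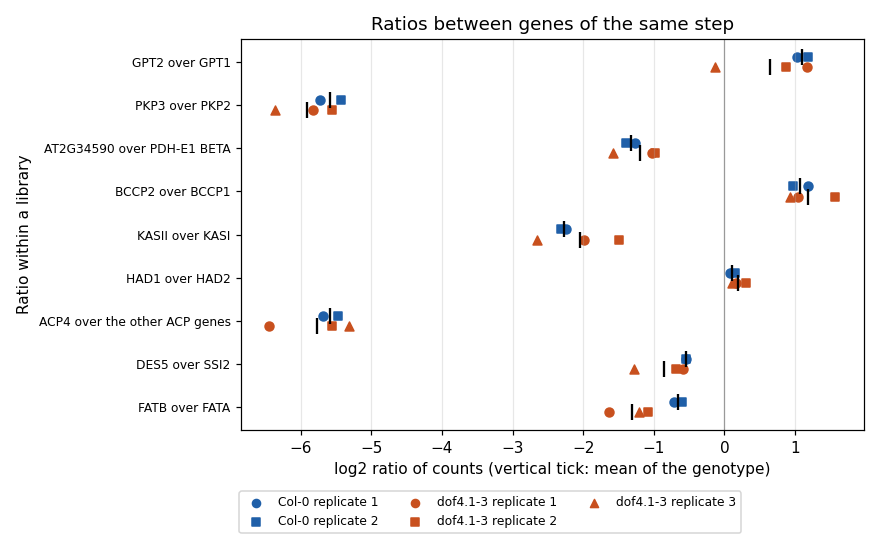
log2 ratio of counts (horizontal axis) for 9 ratios between genes of the same step, with 1 point per library (Col-0 blue, dof4.1-3 orange) and a tick at each genotype's mean. FATB over FATA lies at -0.71 and -0.60 in Col-0 and at or below -1.08 in dof4.1-3, and 7 of the 9 ratios overlap.

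The 3 dof4.1-3 libraries differed among themselves. Against the mean of Col-0, the median log2 difference of the 41 genes was 0.40 in replicate 1, 0.10 in replicate 2 and 0.33 in replicate 3, and 38, 26 and 32 of the genes were above that mean. The 2 Col-0 libraries lay at -0.02 and 0.02, equal and opposite by construction. Replicate 2 of dof4.1-3 was below replicate 1 in 37 of 41 genes and below replicate 3 in 31 of 41. Summed over the pathway, levels were 15243 and 15378 CPM in Col-0 and 20529, 16278 and 19768 CPM in dof4.1-3. The sum was above Col-0 in every dof4.1-3 library, with a ratio of means of 1.23.

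As a share of all gene counts, the same transcripts overlapped between the genotypes. Their share was 1.498% and 1.84% in Col-0, against 2.24%, 1.38% and 1.81% in dof4.1-3. The 9 cruciferin and napin genes, which encode the storage proteins, took 9.82% and 6.12% in Col-0, against 14.04%, 28.2% and 19.0% in dof4.1-3, most in replicate 2. With the storage genes left out of the total, the pathway's share was 1.66% and 1.96% in Col-0, against 2.61%, 1.92% and 2.23% in dof4.1-3, where replicate 2 stayed below Col-0 replicate 2. None of the 41 was among the 50 most abundant genes. Whether the storage transcripts had a part in the spread between dof4.1-3 libraries was not tested.

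**Figure D4:**
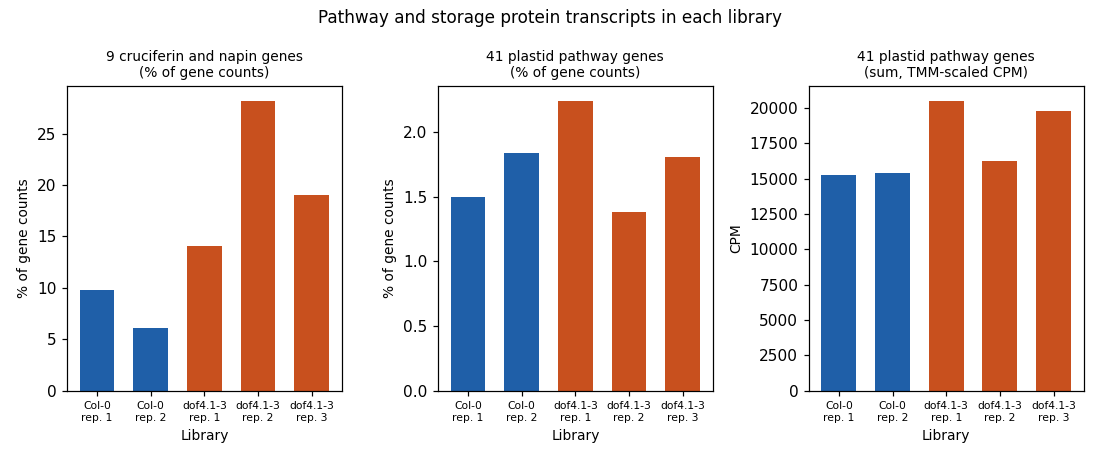
Share of gene counts in 9 cruciferin and napin genes (left) and in the 41 pathway genes (middle), and the pathway's summed TMM-scaled CPM (right), with 1 bar per library (Col-0 blue, dof4.1-3 orange). In dof4.1-3 replicate 2 the storage share is highest (28.2%) and the pathway share lowest (1.38%).

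Gene length moved with the differences between genotypes across the whole table. The median log2 fold change was -0.30 in the shortest of 10 length classes of tested genes (66 to 915 bases of exon) and 0.29 in the longest (from 3231 bases). The 41 genes spanned 644 to 3032 bases, and the shortest of them, ACP5 and ACP1, have 644 and 721. With the trend over length removed from each library, the median of the 41 was 0.32 with 37 positive, and 0 of 41 were called by edgeR. The log2 fold changes of 13 of the 41 changed sign or moved by over 1.5 times. All 5 ACP values were higher in this fit, and none was called. ACP1 went from 0.31 to 0.63, ACP2 from -0.0047 to 0.22, ACP3 from 0.017 to 0.18, ACP4 from -0.066 to 0.090 and ACP5 from -0.36 to 0.031. In the fit that kept the trend, the median was 0.32 without the 5 ACP genes, against 0.31 with them.

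**Figure D5:**
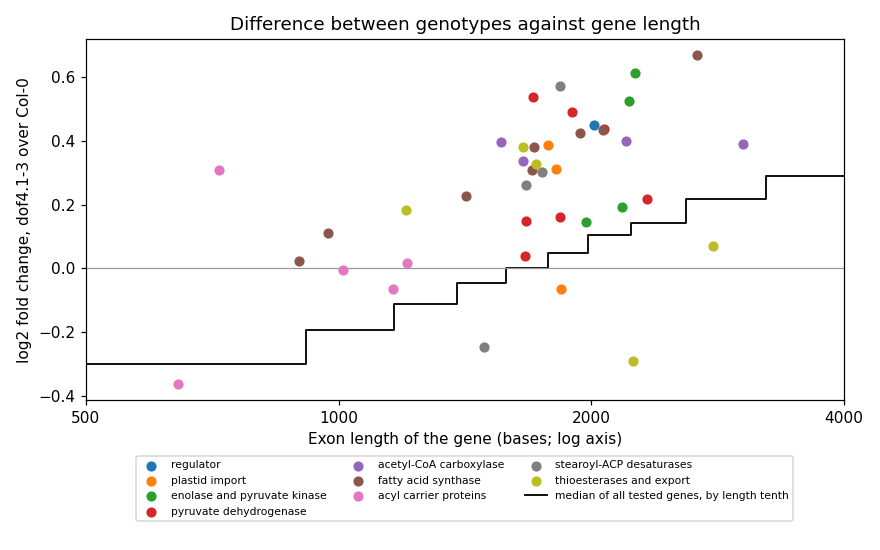
log2 fold change of dof4.1-3 over Col-0 (vertical axis) against exon length (horizontal log axis, bases) for the 41 genes, coloured by step, with a stepped line for the median of all tested genes in each of 10 length classes. The line rises from -0.30 to 0.29, and 37 of the 41 values are above 0 once the trend is removed.

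Genes with and without an AW-box match were set side by side as a description. In the wider window the median log2 fold change was 0.30 for the 29 genes with a match and 0.32 for the 12 without, and 26 and 9 of them were positive. In the shorter window it was 0.23 for 10 genes with a match and 0.31 for 31 without. For the 3 pairs of related genes shown above the log2 fold changes were 0.31 and -0.36 for ACP1 and ACP5, 0.22 and 0.54 for LPD1 and LPD2, and 0.038 and 0.15 for PDH-E1 BETA and AT2G34590. The differences within these pairs were not tested.

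Other genes that feed the pathway were read from lists. Among all tested genes, 52.6% had positive log2 fold changes, 1.08% were called by edgeR and 15.8% had an unadjusted p under 0.05. Every dof4.1-3 library was above both Col-0 libraries in 16.3% of all tested genes and below both in 18.3%. Of 15 further plastid genes of glycolysis and transport, 13 had positive log2 fold changes with a median of 0.25, and 0 were called by edgeR (1 at an unadjusted p under 0.05). NTT2, a plastid ATP carrier, had the smallest p among them, with 340.3 and 342 CPM in Col-0 and 619, 507 and 562 CPM in dof4.1-3. Its dof4.1-3 libraries were all above Col-0, with a log2 fold change of 0.72 ± 0.22 (SE) and an edgeR adjusted p of 0.156. The plastid phosphoglucomutase gene PGM1 and the glyceraldehyde phosphate dehydrogenase gene GAPCP2 followed, at log2 fold changes of 0.38 and -0.42. All 6 genes for plastid NADPH, the reductant of fatty acid synthase, were positive, with a median of 0.37 and 0 called by edgeR (1 at an unadjusted p under 0.05). The plastid malic enzyme gene NADP-ME4 had 230.4 and 243 CPM in Col-0 and 401, 242 and 418 CPM in dof4.1-3, where replicate 2 fell within the Col-0 range. The dehydrogenase genes G6PD3 and PGD3 had log2 fold changes of 0.61 and 0.42. Every dof4.1-3 library was above both Col-0 libraries for G6PD3, G6PD1 and PGD1, while the groups overlapped for PGD3 and G6PD2. Of 12 genes for cofactors and partners of the carboxylase, 7 were positive with a median of 0.032, and 0 were called by edgeR (1 at an unadjusted p under 0.05). The plastid-encoded carboxyltransferase beta gene ACCD had 9.99 and 5.44 CPM in Col-0 and 18.4, 11.6 and 11.7 CPM in dof4.1-3. BADC2, a protein that can take the place of a carrier in the carboxylase, had 252 and 254 CPM in Col-0 and 357, 304 and 350.1 CPM in dof4.1-3. LIP2P2, annotated as an octanoyltransferase for lipoic acid, had under 3 CPM in every library and a log2 fold change of 1.07 ± 0.49 (SE). These 3 genes are named for having the smallest p of the 12. In all 3 the dof4.1-3 libraries were above Col-0, against 16.3% of all tested genes, and the smallest edgeR adjusted p of them was 0.236, for ACCD. In the rest of the 12 the groups overlapped.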

How the data were processed

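RNA-seq was run on developing seeds, 2 Col-0 and 3 dof4.1-3 libraries, grouped by the genotype in the labels. Reads of 50 bases were trimmed by the authors (cutadapt), assessed (FastQC), aligned to TAIR10 (HISAT2) and counted by gene with htseq-count, ignoring strand. For tool versions and the annotation release, the sources used here give none. The deposited values are raw counts, and the 5 summary lines and 9 blank lines of the table were left out. No 2 libraries were duplicates, with a chi-square per gene between pairs of 36.0 to 226.

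Genes were kept by filterByExpr, scaled by TMM and tested by edgeR 4.0.16 (quasi-likelihood F test, robust, genotype only, 3 residual degrees of freedom) with Benjamini-Hochberg adjustment over 19003 genes. The standard error is the log2 fold change divided by the square root of F. Exon lengths and sequences came from TAIR10.1 (RefSeq). Of the 41 genes, 14 share exon bases with an antisense gene, at most 23.0% of their length, and 0 had more than 5% of their windows of 50 bases repeated elsewhere. Ratios used counts plus 0.5. Alternatives were DESeq2 1.42.0, limma-voom 3.58.1, RLE factors, no filter, a replicate block, the length trend removed (lowess, span 0.3), both together, the 50 most abundant genes left out, and each library left out. R 4.3.3, Python 3.11.15 and matplotlib 3.10.9 (for figures) were used. The scripts were tested on simulated data.

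Values in every library are given for the highest gene per length of each step, the 5 genes with the smallest p, WRI1 and the genes of the ratios, and for further genes chosen after their values were seen. From each other list, the marker lists aside, up to 3 genes with the smallest p are named. The marker lists are given by sums, counts and some of their genes. The genes and lists were chosen with earlier results of these data known.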

Additional observations from a re-analysis of the deposited data

How the results depend on the processing

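Of the 41 genes, 0 were called under any of the 13 alternatives, and the smallest adjusted p of any of them was 0.107, for KASII by DESeq2. The median log2 fold change of the 41 ran from 0.28 to 0.32 over the alternatives that kept all libraries, and from 0.23 to 0.36 with each library left out in turn. Calls over the whole table were less stable. Genes called higher and lower numbered 249 and 596 by DESeq2, 170 and 565 with no filter on low counts, 10 and 45 with the length trend removed, and 2 and 2 with the length trend removed beside the replicate block. With each library left out they ran from 0 to 181 higher and from 0 to 707 lower. Leaving out a Col-0 library gave 1 higher and 2 lower (replicate 1) or 0 and 0 (replicate 2). Leaving out a dof4.1-3 library gave 162 and 338 (replicate 1), 181 and 707 (replicate 2) or 4 and 51 (replicate 3). The cause was not tested.

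The labels number replicates in both genotypes, and the numbers were not taken as pairs. The deviation of Col-0 replicate 1 from its group mean correlated at -0.25 with that of dof4.1-3 replicate 1. With dof4.1-3 replicates 2 and 3 the correlations were 0.29 and -0.083. Deviations from a group mean cancel within the group, so mixed signs are forced. These correlations therefore cannot decide whether the numbers mark pairs. With the replicate number as a block, 204 genes were called and 0 of the 41, whose median was 0.29 with 34 positive. Under the block, GPT2 had a log2 fold change of 0.13, PDH-E1 BETA of -0.15 and ACP3 of -0.012. Under the block with the length trend removed, GPT2 had 0.11, PDH-E1 BETA -0.13, ACP2 0.15, ACP5 0.20 and LACS9 -0.12. With the length trend removed alone, ACP2 had 0.22, ACP4 0.090, ACP5 0.031 and LACS9 -0.12, and with no filter ACP2 had 0.0075.

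With each library left out in turn, log2 fold changes that crossed 0 ran from -0.51 to 0.19 for GPT2, -0.031 to 0.47 for PKP3, -0.13 to 0.22 for PDH-E1 BETA, -0.059 to 0.10 for HAD2, -0.068 to 0.10 for ACP2, -0.026 to 0.065 for ACP3, -0.31 to 0.17 for ACP4, -0.68 to 0.051 for ACP5 and -0.23 to 0.31 for LACS9. Differences in log2 ratios that crossed 0 ran from -0.093 to 0.23 for BCCP2 over BCCP1, -0.049 to 0.53 for KASII over KASI and -0.42 to 0.14 for ACP4 over the other ACP genes. That of FATB over FATA ran from -0.77 to -0.49. The difference in the share of gene counts, dof4.1-3 less Col-0, was 0.14 percentage points, ran from -0.075 to 0.36 with a library left out, and was 0.54 without the 50 most abundant genes in the total. The share of the 41 genes with an AW-box was 70.7% in the wider window, chosen after seeing the data, against 24.4% in the shorter one.

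With 2 Col-0 libraries and 3 residual degrees of freedom, no gene called in the whole table had an absolute log2 fold change under 0.95, and all 41 lie below that value. Counts of the 41 were 180 or more per library, and the part of counting error in the spread between libraries was not tested.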

Other observations

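Of 11 genes for the mitochondrial pyruvate dehydrogenase and mitochondrial ACPs, 5 had positive and 6 negative log2 fold changes, with a median of -0.021, and 0 were called by edgeR (0 at an unadjusted p under 0.05). Among all tested genes, 52.6% were positive, 1.08% were called by edgeR and 15.8% had an unadjusted p under 0.05. Every dof4.1-3 library was below both Col-0 libraries in 18.3% of them. The mitochondrial ACP gene mtACP3 had 18.6 and 13.7 CPM in Col-0 and 10.6, 13.02 and 11.8 CPM in dof4.1-3. Every dof4.1-3 library was below both Col-0 libraries, with a log2 fold change of -0.45 ± 0.22 (SE) and an adjusted p of 0.353. The mitochondrial E2 genes mtE2-2 and mtE2-3 had log2 fold changes of 0.30 and 0.19, and their groups overlapped.

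Of 9 further desaturase, exporter and acyl-CoA synthetase genes, 5 were positive, with a median of 0.050, and 0 were called by edgeR (1 at an unadjusted p under 0.05, against 15.8% of all tested genes). LACS8, an acyl-CoA synthetase gene, had 67.0 and 65.6 CPM in Col-0 and 49.6, 42.9 and 48.5 CPM in dof4.1-3, with all dof4.1-3 libraries below Col-0 and a log2 fold change of -0.50 ± 0.18 (SE). LACS1, which serves cuticular wax synthesis, had 69.4 and 94.3 CPM in Col-0 and 73.6, 40.0 and 60.2 CPM in dof4.1-3, and its groups overlapped, as did those of DES3 (log2 fold change -0.37). WRI3 and WRI4, the relatives of WRI1, had at most 1.73 CPM in any library and a median log2 fold change of -0.50, and 0 of 2 were called by edgeR (0 at an unadjusted p under 0.05).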
